A study of Homo sapiens with 6 samples.

Results

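The expression of 10 genes of nucleoside salvage, nucleoside breakdown and nucleotide dephosphorylation was followed in 6 RNA sequencing libraries of cells labelled U-937, the name of a human line with monocytic features that the labels class as acute myeloid leukaemia. The 10 genes were found by name in a deposited table of 56418 rows, which gave 47103 named features, and each had exactly 1 row. Of the libraries, 3 were controls with the genotype WT and 3 carried the label FOXO3A knock-out (FOXO3A is another name of FOXO3). Both groups were grown in the same RPMI medium with serum, and the knockout cells had been made with small guide RNAs. The sources used here give neither the guides nor the treatment of the control cells, and do not say whether the knockout cells were 1 clone, several clones or a pool. They do not say that libraries of 1 group came from separate cultures, so the p-values measure the spread between libraries, which may be technical.

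Cells make nucleotides either from small precursors or by salvage of nucleosides, which enter through equilibrative transporters, are phosphorylated by kinases and are thereby trapped. Deaminases and phosphorylases break nucleosides down before that step, and nucleotidases and the triphosphohydrolase SAMHD1 undo it afterwards. In leukaemia cells the same proteins act on nucleoside drugs. Deoxycytidine kinase activates cytarabine, cytidine deaminase and SAMHD1 inactivate it or its triphosphate, and ADA and PNP deficiency are known for the loss of T lymphocytes.

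The labelled cell type was checked first. In all 6 libraries 15 of 17 myeloid markers with a row of their own were below 1 FPKM (fragments scaled by transcript length and by library size), among them CD14, CD33, CSF1R, LYZ, MPO and SPI1, and their summed level was 10.5 to 12.5 FPKM in control and 10.01 to 11.6 FPKM in knockout libraries, nearly all of it CEBPE and CEBPA. Of 15 T cell markers with a row of their own, 13 reached 1 FPKM in at least 1 library, and their sum was 636 to 716.5 FPKM in control and 719 to 776 FPKM in knockout libraries. The defining T cell gene CD3E stood at 182, 214 and 207 FPKM in the control and 197, 214 and 224 FPKM in the knockout libraries. The data thus go against the label, and the levels given here are those of the libraries as deposited. In bulk RNA, fewer cells of a type and less RNA per cell cannot be told apart. Among 14 tested T cell markers 3 rose, CD2, TRAT1 and BCL11B, where 2.68% of all features tested were called. Of the 14, 11 were higher and 3 lower, beside 5964 higher and 5200 lower among all 11164 features tested. CD4, too low to be tested, was lower, at 0.577, 0.597 and 0.408 FPKM in control and 0.177, 0.181 and 0.167 FPKM in knockout libraries. Of 8 B cell markers, 6 were below 1 FPKM in every library, and their summed level was 37.2 to 44.9 FPKM in control and 26.5 to 33.3 FPKM in knockout libraries. Most of that was CD79A, at 35.6, 43.2 and 39.5 FPKM in control and 25.2, 26.7 and 32.2 FPKM in knockout libraries, where the groups did not overlap (limma adjusted p = 0.0741). The part of these marker differences in the results on salvage genes was not tested. FOXO3 mRNA was at 4.22, 3.63 and 4.27 FPKM in control and 3.93, 4.13 and 3.45 FPKM in knockout libraries (limma adjusted p = 0.732), a level that does not check an edit leaving the transcript in place. Depth, estimated from steps between low values, was 4.37 to 5.71 gigabases of aligned sequence in control and 4.26 to 4.79 in knockout libraries. The second control library stood apart on the first principal component, at −31.3 against −3.72 and −13.6 for the other controls and 10.8 to 19.4 for the knockout libraries. The first control library, at −3.72, lay nearest to the knockout libraries. Its mean correlation was 0.971 with the other controls and 0.969 with the knockout libraries.

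The 10 genes spanned a wide range of levels, and 2 of them were close to absent. Averaged over the 6 libraries, ADA was highest at 158 FPKM, above 98.5% of the 11164 features tested. It was followed by DGUOK at 40.01, PNP at 37.9, SLC29A1 at 28.99, the row holding DCK at 12.7, NT5C2 at 9.15, NT5C3A at 8.9998 and SLC29A2 at 7.91 FPKM. CDA and SAMHD1 came last, with means of 0.0937 and 0.0187 FPKM. The ranges over libraries of DGUOK and PNP overlapped, as did those of the neighbouring genes from the DCK row down to SLC29A2. DGUOK was above PNP, NT5C2 above NT5C3A, and NT5C3A above SLC29A2 in 4 of 6 libraries each, so these orders are not fixed. The DCK row was above NT5C2 in all 6 libraries, though their ranges overlapped. ADA was above DGUOK, PNP above SLC29A1, SLC29A1 above the DCK row, and SLC29A2 above CDA, in all 6 libraries and without overlap of their ranges.

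**Figure D1:**
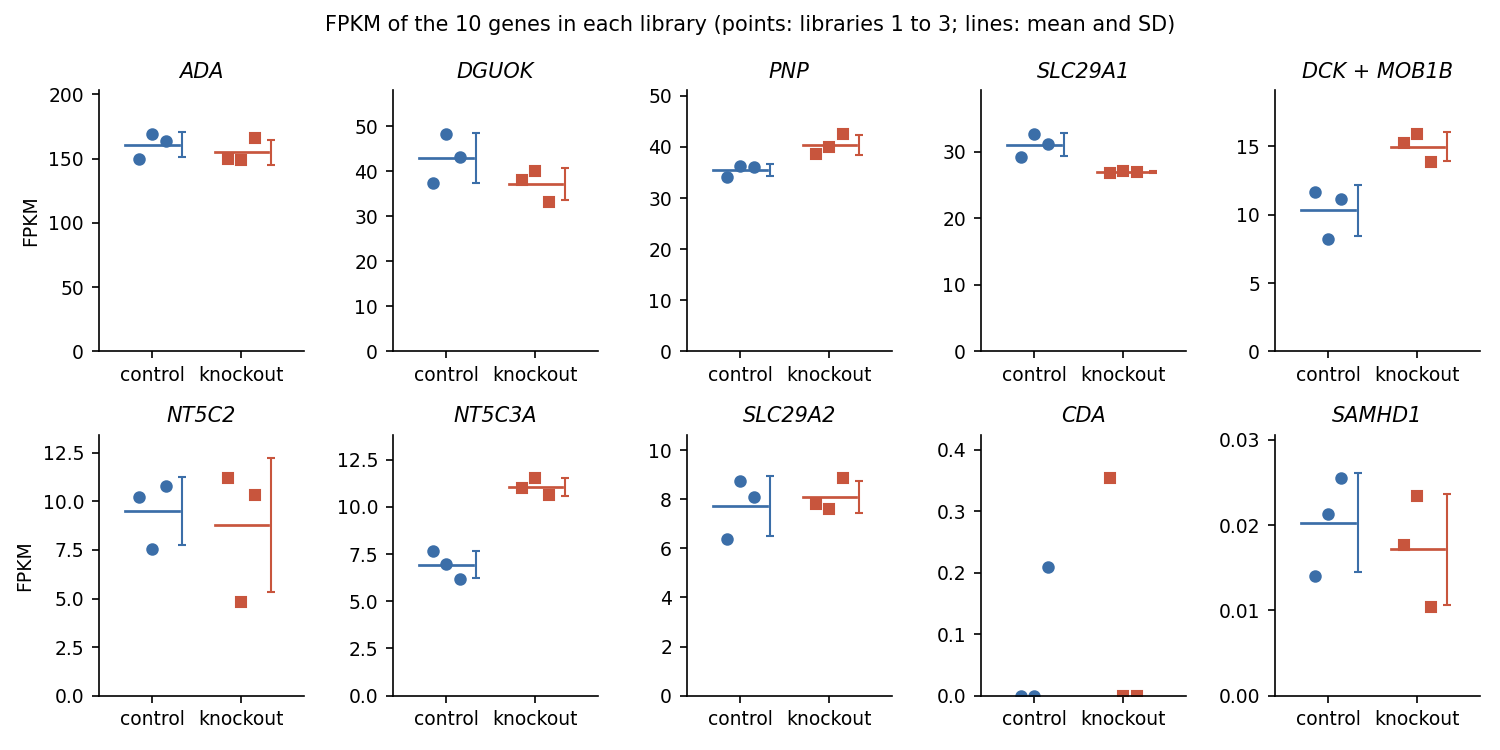
FPKM of each gene in the 3 control libraries (blue circles) and the 3 libraries labelled knockout (red squares), 1 panel per gene with its own linear axis from 0, horizontal lines for group means and error bars for the SD. The groups separate for NT5C3A, the row shared by DCK and MOB1B, SLC29A1 and PNP, and overlap for the other 6 genes. No mean is drawn for CDA, which was listed at the floor of the table in 4 libraries.

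Only 1 of the 8 genes tested passed the threshold. NT5C3A rose, no gene fell, and 7 did not pass (limma on log2(FPKM + 1), adjusted p below 0.05 over all 11164 features). Over all features 2.68% passed, 1.38% as higher and 1.3% as lower in the knockout libraries. The groups did not overlap in 4 of the 8 genes, against 32.3% of all features, and an unadjusted p below 0.05 was reached by 4 of the 8, against 25.7%. Higher and lower values were equally frequent, with 4 genes each, and the median log2 fold change of the 8 was 0.01, beside 0.02 over all features. In 3 against 3 libraries the smallest p an exact permutation test can give is 0.1.

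The sequences around the annotated start sites of the gene that rose are shown because the table gives 1 value for all its transcripts. NT5C3A, on the minus strand of chromosome 7 from 33014113 to 33062797 (GRCh38, GENCODE 29), has 2 entries among the RefSeq promoters (GRCh38.p14), an outer one at chr7:33062727-33063026 and an inner one at chr7:33040857-33041156. DCK has 1 entry, at chr4:70993399-70993698 on the plus strand, and it is shown because it lies inside the span of MOB1B, the gene that shares its row. Each sequence runs 5′ to 3′ along the gene, from 250 bases before to 50 bases after the start. Capitals mark the GC box GGGCGG, the TATA box TATAAA and the E-box CACGTG on either strand.
NT5C3A outer: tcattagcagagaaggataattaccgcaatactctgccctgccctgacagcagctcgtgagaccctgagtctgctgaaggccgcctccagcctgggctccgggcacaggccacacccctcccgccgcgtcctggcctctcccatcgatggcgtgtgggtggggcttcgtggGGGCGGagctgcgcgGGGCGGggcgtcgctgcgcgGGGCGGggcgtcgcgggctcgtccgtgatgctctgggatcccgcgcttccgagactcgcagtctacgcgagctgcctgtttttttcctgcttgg
NT5C3A inner: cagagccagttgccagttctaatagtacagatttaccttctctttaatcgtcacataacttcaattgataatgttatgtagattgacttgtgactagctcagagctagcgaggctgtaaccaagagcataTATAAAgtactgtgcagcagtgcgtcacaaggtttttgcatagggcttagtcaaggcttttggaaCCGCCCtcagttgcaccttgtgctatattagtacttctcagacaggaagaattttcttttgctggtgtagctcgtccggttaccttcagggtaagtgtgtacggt
DCK: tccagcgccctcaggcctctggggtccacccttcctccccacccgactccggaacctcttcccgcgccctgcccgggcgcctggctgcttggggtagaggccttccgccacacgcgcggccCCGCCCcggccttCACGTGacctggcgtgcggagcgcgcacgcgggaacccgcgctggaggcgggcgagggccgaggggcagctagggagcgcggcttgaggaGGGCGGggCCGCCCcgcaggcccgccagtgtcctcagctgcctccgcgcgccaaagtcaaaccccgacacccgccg

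A GC box was found in 9 of the 13 promoter entries that 9 of the 10 genes had (SLC29A2 had none), among them all 3 shown, and in 44.95% of all 35116 promoters. The inner NT5C3A entry held the only match to the TATA box letters among the 13, and 11.5% of all promoters held 1 or more. The letters were searched over the whole window, and this match lies nearer its middle than the start. It therefore does not show that the inner start uses a TATA box. The outer one, at 67.7% GC, held 3 GC boxes and the inner one, at 43.0% GC, held 1. The E-box occurred in the entry of DCK and in 1 of the entries of SLC29A1, and in 7.26% of all promoters. The forkhead core TGTTTAC, also searched on both strands and sharing no site with the other motifs, was in none of the 13 entries and in 3.42% of all promoters, which says only that these letters are missing from these windows.

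NT5C3A encodes a cytosolic nucleotidase of pyrimidine monophosphates, known for the haemolytic anaemia of its deficiency. It stood at 7.67, 6.98 and 6.20 FPKM in control libraries. In those labelled knockout it stood at 11.02, 11.5 and 10.6 FPKM. Every knockout library was above every control. The means were 6.95 ± 0.735 and 11.1 ± 0.456 FPKM (SD, n = 3 each), a ratio of 1.59 and a log2 fold change of 0.60 on the log2(FPKM + 1) scale (SE 0.09, 95% interval 0.39 to 0.82, limma adjusted p = 0.0288, exact two-sided permutation p = 0.1). The row named 14 transcripts, all of NT5C3A in GENCODE 29, so a shift between the outer and the inner start is part of this value and cannot be told apart from a change of the whole gene. Of the genes inside its span, the small RNA copy RN7SL505P was listed at the floor of 0.0001 FPKM in all libraries and the pseudogene RPS29P14 was below 0.1 FPKM.

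The call was not stable. It held without the first control library (adjusted p = 0.0263) and was lost without any of the other 5 libraries, with an adjusted p of 0.0742 or 0.0759 when 1 of the other controls was dropped, and of 0.0874 to 0.126 when a knockout library was. The log2 fold change stayed between 0.53 and 0.67 in these fits. With a term for the replicate number the adjusted p was 0.111, and with no filter on low values 0.0524.

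NT5C3A also lay at an extreme of base composition. The mean GC content of its transcripts was 36.4%, and 1.23% of the 11115 tested features with a value had a lower one. Across these features the log2 fold change moved with GC content. In the decile of lowest GC content its median was 0.31 (25th to 75th percentile 0.13 to 0.48), in the next decile 0.18, and in the decile of highest GC content −0.07. NT5C3A at 0.60 was above the 75th percentile of its own decile. After a smooth trend with transcript length and GC content had been taken out of each library, its log2 fold change was 0.25 (95% interval 0.05 to 0.45) with an adjusted p of 0.121, and 0.33 with an adjusted p of 0.0701 when the second control was also left out, a choice made after seeing the data. The remaining difference thus kept its direction and was smaller by more than 1.5 times in each.

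**Figure D2:**
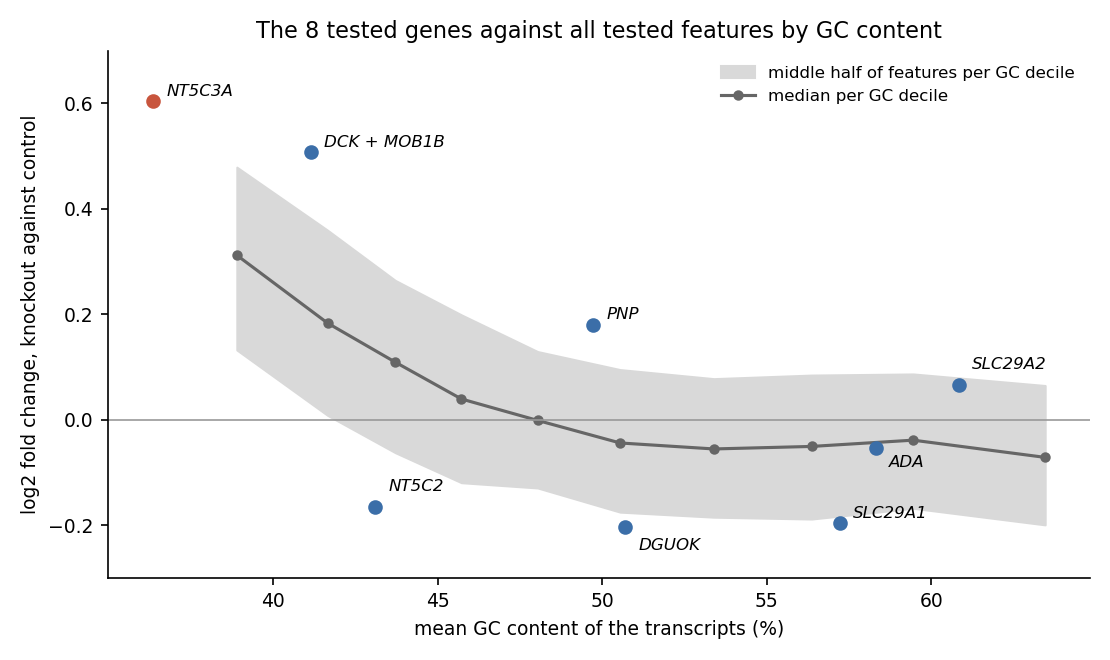
Log2 fold change of the 8 tested genes (points, red where the gene rose) against the mean GC content of their transcripts in percent, over the median (line) and the 25th to 75th percentile (grey band) of all tested features in each decile of GC content. NT5C3A and the row of DCK lie at low GC content, where the medians are 0.31 and 0.18, and both are above the 75th percentile of their own decile.

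Profiles were also compared by the distance between log2 values over the 6 libraries, among tested features that carry the name of a single gene. Those most like NT5C3A were DNAJB9 at a distance of 0.102, HTATSF1 at 0.137 and CENPU at 0.145 (Pearson r 0.991, 0.994 and 0.982 over 6 libraries). HTATSF1, an elongation and splicing factor, was at 58.2, 55.8 and 51.3 FPKM in control and 80.9, 82.3 and 74.2 FPKM in knockout libraries and passed the threshold (adjusted p = 0.0264). DNAJB9, a chaperone of the endoplasmic reticulum, and CENPU, a centromere protein, did not (adjusted p = 0.0517 and 0.0570). The likeness was measured over the same 6 libraries in which the groups were compared.

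The other members of the dephosphorylating arm did not pass the test or were barely detected. NT5C2 encodes the cytosolic purine nucleotidase whose activating mutations are known from relapsed acute lymphoblastic leukaemia treated with thiopurines. It was at 10.2, 7.54 and 10.8 FPKM in control and at 11.2, 4.82 and 10.3 FPKM in knockout libraries. The second library of each group was the lowest, and the groups overlapped widely. The log2 fold change was −0.16 (95% interval −0.88 to 0.55, limma adjusted p = 0.757), an interval that holds a decrease as large as the increase of NT5C3A and an increase nearly as large. Without the second knockout library the difference turned to 0.17, and without the first it was −0.36. Of the 16 transcripts of the row, 2 were assembled ones that GENCODE 29 lacks, and CNNM2, which overlaps NT5C2 on the opposite strand, was at 1.52 to 1.82 FPKM. The sources used here do not state a strand setting, so reads of such overlapping genes cannot be told apart.

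SAMHD1, which cleaves deoxynucleoside triphosphates and limits both reverse transcription and the action of cytarabine, was almost silent. It was listed at 0.0140, 0.0213 and 0.0255 FPKM in control and at 0.0177, 0.0234 and 0.0104 FPKM in knockout libraries, and the groups overlapped (exact two-sided permutation p = 0.6). With 282 bases taken as 1 read pair, these values correspond to between 0.975 and 2.37 read pairs on the longest transcript of the gene. A decrease or a small rise was therefore not detectable at this depth. No knockout library was above 0.0234 FPKM. SAMHD1 is on chromosome 20 from 36889773 to 36951901 (GRCh38), on the minus strand.

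Among the other 18 nucleotidases and nucleoside triphosphatases with a row, 15 were tested and 0 passed, with 9 higher and 6 lower (median log2 fold change 0.04). At an unadjusted p the limma fit had 2 of these 15 below 0.05, beside 25.7% of all features. NT5C, a deoxynucleotidase of the cytosol, had the highest log2 fold change, at 6.20 ± 0.539 and 8.26 ± 2.59 FPKM (SD, n = 3 each, adjusted p = 0.358). Its log2 fold change of 0.33 was 0.13 without the second knockout library, which was at 10.9 FPKM, and 0.54 without the first. NT5M, its mitochondrial relative, had the lowest, at 5.53 ± 0.598 and 3.84 ± 0.609 FPKM (adjusted p = 0.0973).

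DCK and DGUOK encode related deoxynucleoside kinases, DCK in the cytosol and nucleus and DGUOK in mitochondria, where it serves purine deoxynucleosides. DCK has no row of its own. Its only row also names MOB1B, a gene of Hippo signalling on the same strand, because the spans of MOB1B (chromosome 4, 70902326 to 71022449) and DCK (70992538 to 71030914, GRCh38) overlap by 29912 bases. Of the 11 transcripts in that row, 6 are of DCK and 5 of MOB1B, so what follows is the value of the pair and cannot be given to either gene. The row stood at 11.7, 8.20 and 11.1 FPKM in control and at 15.2, 15.9 and 13.8 FPKM in knockout libraries. Every knockout library was above every control, and the second control was the lowest.

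The means of the row were 10.3 ± 1.88 and 15.0 ± 1.06 FPKM (SD, n = 3 each), with a log2 fold change of 0.51 (95% interval 0.18 to 0.84). It did not pass the test over all features (limma adjusted p = 0.0891, exact two-sided permutation p = 0.1). The adjusted p was between 0.0590 and 0.253 over 16 alternatives, none of them past the threshold. Its transcripts were also poor in GC, at 41.2%, with 12.8% of tested features lower. Once the length and GC trend was removed the log2 fold change was 0.27 (adjusted p = 0.0833), and 0.21 when the second control was left out too (adjusted p = 0.140).

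DGUOK, on chromosome 2 from 73926826 to 73958961, was at 37.3, 48.3 and 43.2 FPKM in control and at 38.0, 40.1 and 33.2 FPKM in knockout libraries. The groups overlapped, with the second control highest and the third knockout library lowest (log2 fold change −0.20, 95% interval −0.48 to 0.08, limma adjusted p = 0.320). The log2 fold change was −0.12 without that control, −0.13 without that knockout library, −0.09 with the length and GC trend removed, and −0.03 with the trend removed and the second control left out. DGUOK-AS1, annotated on the opposite strand of its end, was at 5.86 ± 1.17 and 4.53 ± 1.05 FPKM (SD, n = 3 each) and did not pass the test either (adjusted p = 0.326). Of 6 other nucleoside kinases, among them the thymidine kinases TK1 and TK2, 0 passed the limma test at an adjusted p below 0.05. Unadjusted, 1 of the 6 was below 0.05, beside 25.7% of all features. The lowest log2 fold change was that of TK2, at 2.60 ± 0.0977 and 2.06 ± 0.276 FPKM (adjusted p = 0.182). TK2 had a row of its own and also stood in a row shared with other genes, which was added to its value.

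**Figure D3:**
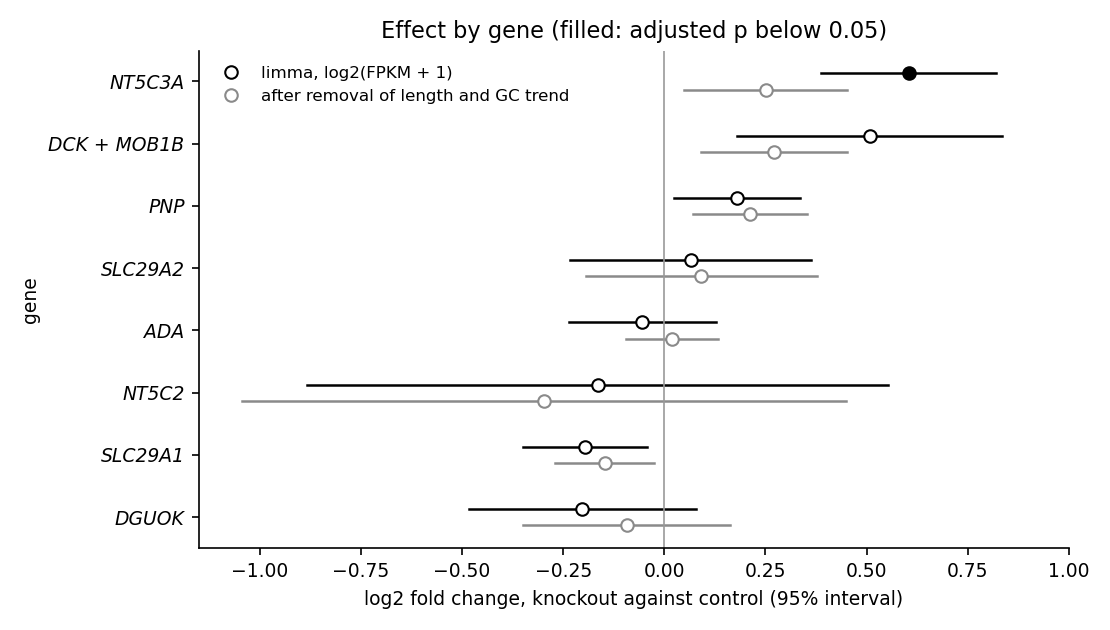
Log2 fold change of the 8 tested genes on the log2(FPKM + 1) scale with its 95% interval, as fitted (black) and after removal of the trend with transcript length and GC content (grey), filled where the adjusted p was below 0.05. NT5C3A is the one filled point, at 0.60, and its grey counterpart is at 0.25. NT5C2 has the widest interval.

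The transporters that bring nucleosides in were both expressed. SLC29A1 encodes ENT1, the main equilibrative carrier for nucleosides and for cytarabine, on chromosome 6 from 44219505 to 44234151. It was at 29.3, 32.7 and 31.2 FPKM in control and at 26.8, 27.1 and 26.9 FPKM in knockout libraries. Every knockout library was below every control, and the knockout libraries lay close together. The log2 fold change was −0.20 (95% interval −0.35 to −0.04), which did not pass the test over all features (limma adjusted p = 0.124, 0.0703 to 0.298 over its alternatives).

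SLC29A2 encodes ENT2, a second equilibrative carrier that also moves nucleobases. It was at 6.37, 8.75 and 8.08 FPKM in control and 7.81, 7.62 and 8.85 FPKM in knockout libraries. The groups overlapped, and the direction turned without the first control library (log2 fold change 0.07, and −0.05 without it). The concentrative carriers SLC28A1, SLC28A2 and SLC28A3 were below 0.03 FPKM in every library. Of the 5 other transporters and efflux pumps tested, 0 passed the limma test at an adjusted p below 0.05. Unadjusted, 1 of the 5 was below 0.05, beside 25.7% of all features. ABCC4, an efflux pump of nucleotide analogues, was at 2.46 ± 0.443 and 2.93 ± 0.340 FPKM, and its relative ABCC5 at 6.15 ± 1.03 and 4.72 ± 0.330 FPKM (SD, n = 3 each, adjusted p = 0.376 and 0.183).

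ADA and PNP act one after the other in purine breakdown. ADA deaminates adenosine and deoxyadenosine, and PNP cleaves inosine, guanosine and their deoxy forms. ADA, on chromosome 20 from 44619522 to 44652233, was at 150, 169 and 164 FPKM in control and 149, 149 and 166 FPKM in knockout libraries. The groups overlapped (log2 fold change −0.05, 95% interval −0.24 to 0.13, limma adjusted p = 0.680). The direction turned with quantile normalization (0.02) and with the length and GC trend removed (0.02). PKIG, an inhibitor of protein kinase A whose gene overlaps the end of ADA on the opposite strand, was at 10.1, 12.3 and 12.2 FPKM in control and 8.35, 7.45 and 8.48 FPKM in knockout libraries (adjusted p = 0.0617).

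PNP, on chromosome 14 from 20468954 to 20477094, was at 34.1, 36.2 and 36.1 FPKM in control and at 38.5, 40.04 and 42.5 FPKM in knockout libraries. Every knockout library was above every control, though by little. The log2 fold change was 0.18 (95% interval 0.02 to 0.34), which did not pass the test over all features (limma adjusted p = 0.152, 0.0834 to 0.332 over its alternatives). PNP was of middling GC content, at 49.7%, and its log2 fold change once the length and GC trend was removed was 0.21.

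CDA, which deaminates cytidine and cytarabine, was at the edge of detection. It was listed at the floor of 0.0001 FPKM in 2 control and 2 knockout libraries, at 0.209 FPKM in the third control and at 0.353 FPKM in the first knockout library. The last of these corresponds to 4.06 to 5.14 read pairs, depending on the transcript. Of the 5 other deaminases tested, among them DCTD of deoxycytidylate, 0 passed the limma test at an adjusted p below 0.05, beside 2.68% of all features. Below 0.05 unadjusted were 0 of the 5, beside 25.7% of all features.

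Of 3 tested genes of base salvage 0 passed the limma test at an adjusted p below 0.05, beside 2.68% of all features. Below 0.05 unadjusted were 0 of the 3, beside 25.7% of all features. HPRT1, which returns purine bases to nucleotides, was at 85.7 ± 2.26 and 79.8 ± 0.951 FPKM (SD, n = 3 each, adjusted p = 0.278). UPRT, named for uracil phosphoribosyltransferase, was at 2.51, 2.63 and 2.77 FPKM in control and 6.32, 2.84 and 2.73 FPKM in knockout libraries, so that 1 library set its higher mean. MTAP, which cleaves methylthioadenosine and was named after its values were seen, was at 0.00686 FPKM or below in all 6 libraries. The gene is on chromosome 9 from 21802543 to 21937651 (GRCh38).

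In the wider nucleotide network 1 gene of 72 tested rose and 0 fell, against 2.68% of all features called in either direction. At an unadjusted limma p, 18 of the 72 were below 0.05, beside 25.7% of all features. These 72 had 40 lower and 32 higher log2 fold changes, a median of −0.02, and 17 of them stood only in rows that they shared with other genes. NME1 and NME2 shared 1 such row, which therefore counts 2 times among the 72, among the 40 lower and among the 12 nucleotide kinases. The gene that rose was PRPS2, one of the synthetases of phosphoribosyl pyrophosphate, the sugar donor of both new synthesis and base salvage. PRPS2, on the X chromosome from 12791355 to 12824222, was at 24.8, 21.2 and 23.3 FPKM in control and at 41.0, 42.7 and 42.5 FPKM in knockout libraries. The groups were far apart. The log2 fold change was 0.84 (SE 0.07, 95% interval 0.66 to 1.02, limma adjusted p = 0.00577). It passed the threshold without each of the 6 libraries in turn (adjusted p 0.0119 to 0.0374) and once the length and GC trend was removed (0.86, adjusted p = 0.00326), and missed it with a term for the replicate number (adjusted p = 0.0688).

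The other 11 purine synthesis genes tested did not pass. At an unadjusted limma p, 7 of the 12 tested in this list were below 0.05, beside 25.7% of all features. Of the 12, 4 were higher and 8 lower. PPAT, the amidotransferase of the first committed step, was at 12.9, 8.16 and 9.88 FPKM in control and 17.6, 18.3 and 17.2 FPKM in knockout libraries (log2 fold change 0.75, limma adjusted p = 0.0546), and was named after its values were seen. It passed in 4 alternatives, which were a mean of at least 5 FPKM, quantile normalization, the length and GC trend removed, and the first control left out. PAICS, a later enzyme of the same route, was at 100.7, 97.8 and 55.5 FPKM in control and 50.2, 49.0 and 45.2 FPKM in knockout libraries (log2 fold change −0.75, adjusted p = 0.111, and −1.03 with adjusted p = 0.0150 without the third control). The third control was thus close to the knockout libraries for PAICS and among the other controls for PPAT.

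Deoxynucleotide synthesis held 0 called genes among 9 by limma, with 2 below 0.05 unadjusted, beside 25.7% of all features. RRM2B, a subunit of ribonucleotide reductase, had the highest log2 fold change, at 3.06 ± 0.893 and 4.64 ± 0.232 FPKM, and TYMS, thymidylate synthase, the lowest, at 286 ± 42.0 and 222 ± 5.29 FPKM (SD, n = 3 each, limma adjusted p = 0.123 and 0.121). RRM2B passed without the first control (log2 fold change 0.67, adjusted p = 0.0326). TYMS passed without the second control (−0.48, adjusted p = 0.0319), also with the length and GC trend removed as well (−0.41, adjusted p = 0.0221). All 5 tested genes of pyrimidine synthesis and breakdown were lower without passing the test, from CTPS1 at −0.25 to DPYD at −0.05 on the log2 scale. By limma, 2 of these 5 were below 0.05 unadjusted, beside 25.7% of all features. DPYD, which starts pyrimidine breakdown, was at −0.30 and past the threshold with the length and GC trend removed (limma adjusted p = 0.0476), and slightly above 0 without the first control or without the last knockout library. Of 12 nucleotide kinases tested 0 passed by limma and 3 were below 0.05 unadjusted, beside 25.7% of all features. CMPK2, a mitochondrial kinase, was highest, at 4.47 ± 2.23 and 6.86 ± 0.706 FPKM, and DTYMK, thymidylate kinase, lowest, at 21.1 ± 1.03 and 18.5 ± 0.872 FPKM (SD, n = 3 each, adjusted p = 0.293 and 0.175). The first control, at 1.89 FPKM against 5.78 and 5.75 in the other controls, set much of the CMPK2 value, whose log2 fold change was 0.62 with it and 0.21 without it.

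**Figure D4:**
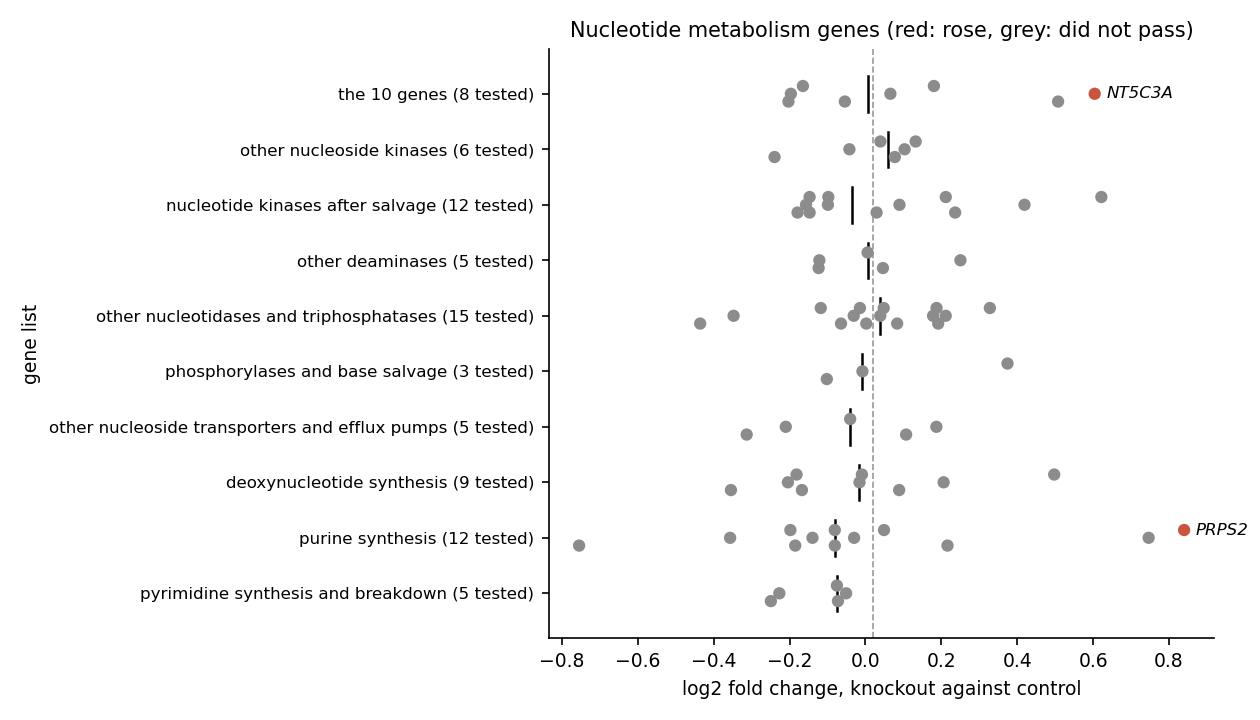
Log2 fold change of each tested gene (points, spread vertically for visibility) in the 10 genes and in 9 lists of nucleotide metabolism, with list medians (black bars) and the median of all features (dashed line). NT5C3A at 0.60 and PRPS2 at 0.84 are the only genes past the threshold, and list medians lie between −0.08 and 0.06.

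**Figure D5:**
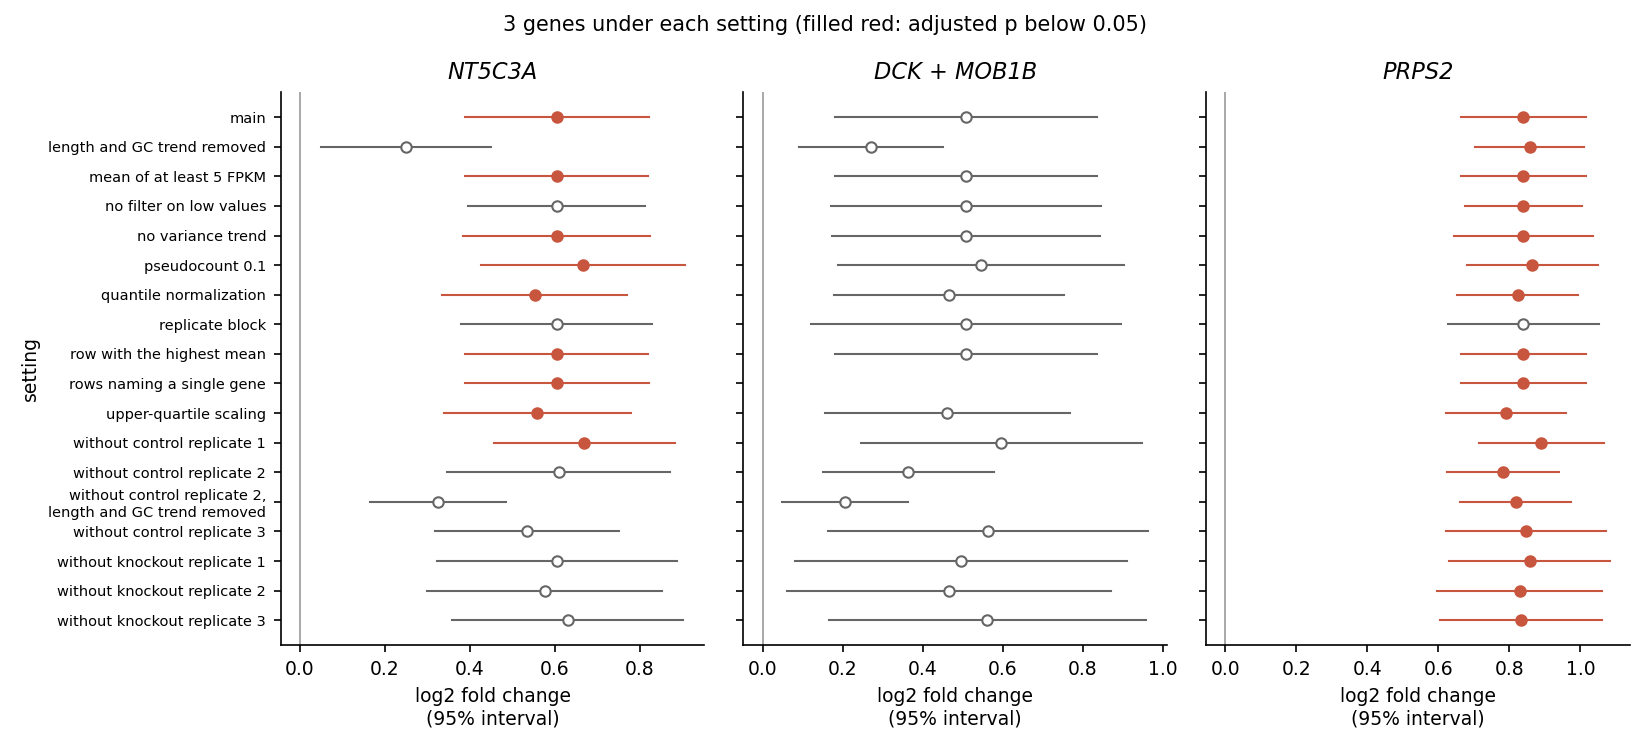
Log2 fold change with its 95% interval for NT5C3A, the row of DCK and MOB1B, and PRPS2 under each way of processing, filled red where the adjusted p was below 0.05. NT5C3A is filled under the main setting and under 8 of 17 alternatives, the DCK row under none of 16, and PRPS2 under 16 of 17.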

How the data were processed

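Values were the FPKM that the authors deposited, 1 column per library, per the file headers. Bowtie 0.12.9, HTSeq and Cufflinks 2.1.1 are named, without their roles, per the submitters' processing notes, as is build hg38. Row identifiers include loci of a merged assembly. The 4865 identical repeats were dropped, rows of 1 name were summed, and a row naming several genes was also given to the listed genes in it. FPKM holds no counts, so no count model was run. Depth was estimated from the steps of FPKM times transcript length in rows of 1 transcript, with 75.8% to 77.9% of low values no more than 0.1 from a whole multiple.

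Groups were compared by limma 3.58.1 under R 4.3.3, with a variance trend and no covariate, on log2(FPKM + 1), for features with a mean of at least 1 FPKM, with two-sided Benjamini-Hochberg adjustment at 0.05. Fold changes on this scale understate those of low genes. The 10 genes, the lists and the tests were chosen with earlier results of these data known. Named genes were the 10, listed genes past the threshold, the highest and lowest of a list, and the 3 single-gene profiles nearest to NT5C3A. Alternatives covered pseudocount, filter, scaling, variance trend, replicate number, choice of rows, length and GC content (natural splines, 4 degrees of freedom each, GENCODE 29) and each library left out. Tables and plots were made in Python 3.11.15 with matplotlib 3.10.9 and pandas 2.3.3. Protein sequences were not used here.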

Additional observations from a re-analysis of the deposited data

How the results depend on the processing

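Among the 10 genes, the count past the threshold was 1, always NT5C3A, in the main fit and in 8 of 17 alternatives. It was 0 with no filter on low values, with the replicate block, with the length and GC trend removed, and with that removal without the second control, and 0 to 1 over the libraries left out. The count over all features was 299. It was 193 with no filter, 543 with quantile normalization, 27 with the replicate block, 736 with the length and GC trend removed, and 68 (without the second or the third knockout library) to 926 (without the first control) over libraries left out, with 128 without the second control, 95 without the third and 79 without the first knockout library. Rises and falls were 154 and 145 in the main fit, 170 and 260 with upper-quartile scaling, 253 and 290 with quantile normalization and 677 and 249 without the first control. Among pathway genes the count of 1 became 0 with the replicate block, 2 with a mean of at least 5 FPKM, 2 with quantile normalization, 6 with the trend removed, 2 with that removal without the second control, and 1 to 4 over libraries left out, PRPS2 among them wherever the count was above 0. The labels number the libraries but do not say whether same-numbered ones were pairs. Their deviations from the group means correlated at 0.0985, −0.0389 and 0.0159. So few libraries cannot settle whether they were paired, and the fit with the replicate block stands beside the main one. The 9 reversals were all of values that did not pass: NT5C2 (0.173 without the second knockout library, −0.360 to 0.173 over libraries left out), SLC29A2 (−0.0518 without the first control, −0.0518 to 0.151), ADA (0.0234 with quantile normalization, 0.0200 with the trend removed, 0.0284 with that removal without the second control), DPYD (0.00107 without the first control, −0.117 to 0.00478), UCKL1 (−0.0805 without the second knockout library, −0.0805 to 0.248) and FOXO3 (0.000274 without the last knockout library, −0.118 to 0.000274). With the trend removed, log2 fold changes of genes that did not pass moved over 1.5 times for TK2 (−0.24 to −0.39), HPRT1 (−0.10 to −0.18), ABCC4 (0.19 to 0.06) and DTYMK (−0.18 to −0.06). The cause of these shifts was not tested. For TK2, the length and GC content used were those of its own row alone, though its value also holds a shared row. Depth limits SAMHD1 and CDA.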
